A study of Homo sapiens with 4 samples.

Results

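The genes described here copy the genome: they mark replication origins, load and start the helicase, and build the polymerases, the sliding clamp and the single-strand binding protein of the fork. They were taken by name from a list of 39 such genes. The deposited table held 38 of them among its 25122 genes. POLA2 was not analysed here. The study sequenced messenger RNA of Jurkat, a line established from a human T-cell leukaemia, and the labels give its genotype as WT. There were 2 libraries with the treatment shBDH1, a short hairpin RNA against BDH1, and 2 with shcontrol, a control hairpin. BDH1 encodes the mitochondrial enzyme that interconverts acetoacetate and beta-hydroxybutyrate. The design text asks about MYC and NKX3.1 downstream of BDH1 and names cells with MYC restored, which were not analysed here. The labels do not give the number of hairpins, the time after their delivery or the cultures behind each library, so a p-value here measures no more than how far these libraries varied, and that variation may be technical.

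In human cells the origin recognition complex, with CDC6 and CDT1, loads the ring-shaped MCM2-7 helicase on DNA before S phase, a step called licensing. The kinase CDC7 with DBF4 then helps CDC45 and the 4-subunit GINS complex join MCM2-7, which makes the active helicase called CMG. Behind it the primase and the polymerases copy both strands, held by the PCNA ring that the RFC complex loads, while RPA coats the exposed single strands. Most of these genes are transcribed at the border of G1 and S phase under E2F factors, and a fast-dividing leukaemia line expresses them at high levels.

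Each library held between 28681511 and 29453383 reads in genes, and the values, called normalized counts below, are gene reads after division by the authors' size factor of the library. BDH1 had 1221 and 1412 normalized counts in shBDH1 libraries, against 1725 and 1911 in shcontrol libraries. It fell by 0.47 on the log2 scale (SE 0.08, limma adjusted p = 1.54e-05), so most of its RNA remained. MYC had 7453 and 7368 in shBDH1 libraries, against 14683 and 14804 in shcontrol libraries, and fell by 0.99 (SE 0.04, limma adjusted p = 2.73e-18). CDK4, a kinase of the G1 phase, had 4151 and 3909 in shBDH1 libraries, against 6006 and 5885 in shcontrol libraries, and fell by 0.56 (SE 0.05, limma adjusted p = 1.29e-10). The cells carried T-cell RNA: all 9 markers of a T cell line were in the table, and their normalized counts summed to 52939 and 52969 in shBDH1 libraries, against 41470 and 41773 in shcontrol libraries, with 6 higher and 1 lower. Of the B cell markers, 3 of 5 were in the table and summed to 686 and 666 in shBDH1 libraries, against 220 in each shcontrol library. Of the myeloid markers, 4 of 5 were in the table and summed to 72.7 and 67.4 in shBDH1 libraries, against 56.5 and 57.2 in shcontrol libraries, with LYZ at 0 in 3 libraries. Of the fibroblast and epithelial markers, 3 of 6 were in the table and summed to 1031 and 922 in shBDH1 libraries, against 718 and 732 in shcontrol libraries. None of the 4 erythroid markers was in the table. The part of these marker shifts in the results below was not tested.

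Replication genes were mostly steady or slightly lower with shBDH1, and the changes were unequal within complexes. Differences are log2(normalized count + 1), shBDH1 minus shcontrol, tested with limma over 19301 genes whose mean was at least 10, and a gene is said to rise or fall where the Benjamini-Hochberg adjusted p was under 0.05. Of the 37 replication genes tested, 4 rose (CDC6, MCM2, MCM4 and PCNA), 13 fell and 20 did not pass. GINS1 and GINS3, parts of the active helicase, fell most, and CDC6, a helicase loader, rose most.

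These counts stood beside a broad shift of the transcriptome. Over all genes tested, 20.3% rose, 20.8% fell and 41.1% changed either way, against 10.8%, 35.1% and 45.9% of the replication genes. All but 1 of the replication genes tested had a mean of at least 1000. Among the 7227 genes at that level, 26.2% rose, 34.7% fell and 60.9% changed. Beside genes above that floor, the share of replication genes that fell was near the background, and the share that rose was under it. Abundance was not matched beyond the floor, and the split of the replication genes depended on the scaling, as given below. In 29 of the 37 genes, or 78.4%, both shBDH1 libraries lay on 1 side of both shcontrol libraries, beside 69% of all genes tested. This share was not counted among genes at a mean of at least 1000, so these shares do not compare genes of like abundance. The median difference was -0.11 over the replication genes, -0.01 over all genes tested and -0.04 over genes at a mean of at least 1000.

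Changes were small. Only 2 of the 37 replication genes, or 5.41%, differed by over 0.5 on the log2 scale, compared with 28.3% of all genes tested and 13.9% of those at a mean of at least 1000, and 28 differed by under 0.2. The SE ran between 0.033 and 0.090. Each SE, interval and limma p-value rests on 2 residual degrees of freedom of the gene and 25.8 prior ones pooled from other genes. The gap between a gene's own libraries therefore weighs little in them. Of the 17 genes that passed, 15 differed by more than the gap between the libraries of either group, and the exceptions were ORC3 and CDT1. With upper-quartile scaling of the recovered reads in edgeR the split was 7 higher and 8 lower, and with library totals 6 higher and 9 lower. Without shcontrol replicate 1, limma called 1 higher and 8 lower. In bulk RNA, fewer cells in S phase and less RNA per cell cannot be told apart.

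**Figure D1:**
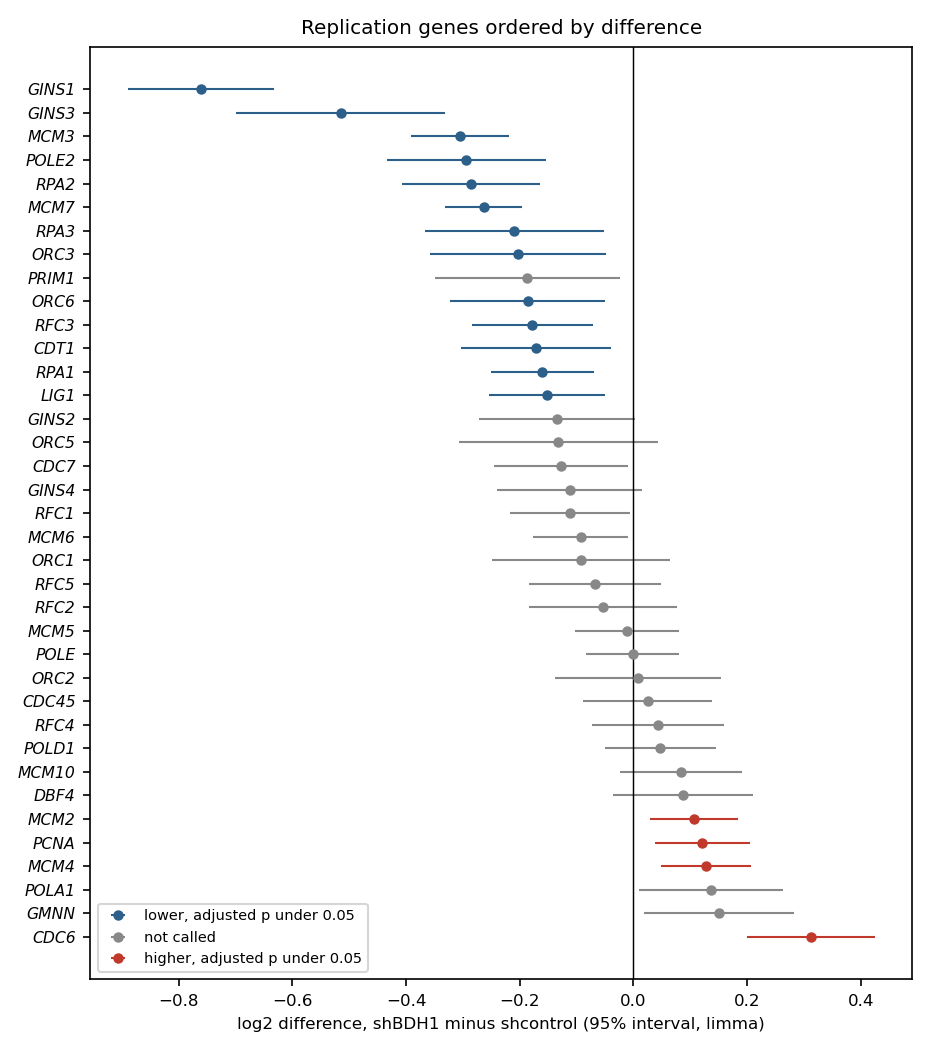
Difference of each of the 37 replication genes on the log2 scale, shBDH1 minus shcontrol, with its 95% interval from limma, ordered by size. GINS1 and GINS3 lie apart at the low end, CDC6 lies at the high end, and 28 of the 37 genes differ by under 0.2.

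The origin recognition complex marks origins and anchors helicase loading, and 2 of its 5 genes tested fell. ORC3, a subunit of its core, had 1596 and 1372 normalized counts in shBDH1 libraries, against 1728 and 1679 in shcontrol libraries. It fell by 0.20 (SE 0.08, limma adjusted p = 0.0313), and the first shBDH1 library sat much nearer the shcontrol libraries than the second. ORC6, the small subunit that binds more loosely, had 1810 and 1675 in shBDH1 libraries, against 1973 and 1990 in shcontrol libraries, and fell by 0.19 (SE 0.07, limma adjusted p = 0.0260). With all libraries kept, ORC3 and ORC6 did not pass in DESeq2 (DESeq2 adjusted p = 0.1097 and 0.08133). In edgeR they did not pass with upper-quartile factors (edgeR adjusted p = 0.1135 and 0.09981) or library totals (0.06828 and 0.05808). Both passed in edgeR with TMM factors (edgeR adjusted p = 0.0437 and 0.0344). Each call was lost in 8 of the 14 alternative fits. Neither call held without shBDH1 replicate 2 (limma adjusted p = 0.396 for ORC3 and 0.188 for ORC6), without shcontrol replicate 1 (0.128 and 0.0840) or without shcontrol replicate 2 (0.0520 and 0.109). ORC1, the ATPase subunit whose level cycles in human cells, had 1551 and 1336 in shBDH1 libraries, against 1542 and 1528 in shcontrol libraries, a difference of -0.09 (95% interval -0.25 to 0.06). ORC2 had 1832 and 1680 in shBDH1 libraries, against 1834 and 1660 in shcontrol libraries, a difference of 0.01 (95% interval -0.14 to 0.15). For both genes the groups overlapped. ORC5 had 999 and 1003 in shBDH1 libraries, against 1168 and 1029 in shcontrol libraries, a difference of -0.13 (95% interval -0.31 to 0.04).

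Of the licensing factors, CDC6 rose, CDT1 fell in a call that rested on the second shBDH1 library, and GMNN did not pass. CDC6 (ENSG00000094804, at chr17:40287633-40304657 on hg38 by GENCODE 29, as for all gene positions here), the ATPase that joins the origin recognition complex to load MCM2-7, had 3420 and 3618 normalized counts in shBDH1 libraries, against 2816 and 2850 in shcontrol libraries. Its mean was 24.2% higher, a log2 difference of 0.31 (SE 0.05, limma adjusted p = 3.23e-05). Both shBDH1 libraries lay well above both shcontrol libraries, although 2949 of the 3910 genes that rose did so by more. CDT1, which brings the helicase to the origin and is destroyed once S phase starts, had 4661 and 3731 in shBDH1 libraries, against 4709 and 4681 in shcontrol libraries. It fell by 0.17 (SE 0.06, limma adjusted p = 0.0344), but the first shBDH1 library lay close to the shcontrol libraries, and the call rested on the second. With all 4 libraries CDT1 did not pass in DESeq2 (DESeq2 adjusted p = 0.480) or in edgeR with upper-quartile factors (edgeR adjusted p = 0.155). Without shBDH1 replicate 2 the difference was -0.01 (limma adjusted p = 0.902), without shBDH1 replicate 1 it was -0.33, and without shcontrol replicate 1 the adjusted p was 0.0512. GMNN encodes geminin, the inhibitor of CDT1. It had 2614 and 2800 in shBDH1 libraries, against 2287 and 2598 in shcontrol libraries, a difference of 0.15 (95% interval 0.02 to 0.28, limma adjusted p = 0.0616). The shBDH1 libraries were the higher ones, with the second shcontrol library just under them. This difference passed the test without shBDH1 replicate 1 (limma adjusted p = 0.0498) and without shcontrol replicate 2 (0.0104).

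Within the MCM2-7 ring, whose 6 subunits assemble in equal number, 2 genes rose, 2 fell and 2 did not pass. MCM7 (ENSG00000166508, chr7:100092728-100101940) had 16716 and 16898 normalized counts in shBDH1 libraries, against 20403 and 19945 in shcontrol libraries, and fell by 0.26 (SE 0.03, limma adjusted p = 1.66e-07). MCM3 (ENSG00000112118, chr6:52264009-52284881) had 8271 and 9012 in shBDH1 libraries, against 10538 and 10806 in shcontrol libraries, and fell by 0.31 (SE 0.04, limma adjusted p = 8.29e-07). The mean of MCM7 fell by 16.7% and that of MCM3 fell by 19.0%, with every shBDH1 library under every shcontrol library. MCM2, the subunit whose tail CDC7 phosphorylates, had 13244 and 12467 in shBDH1 libraries, against 11935 and 11931 in shcontrol libraries, and rose by 0.11 (SE 0.04, limma adjusted p = 0.0240). MCM4, another target of CDC7, had 10807 and 11094 in shBDH1 libraries, against 9864 and 10179 in shcontrol libraries, and rose by 0.13 (SE 0.04, limma adjusted p = 0.00808). These rises were small, 7.73% and 9.27%, and the first did not pass when shBDH1 replicate 1 (limma adjusted p = 0.189), shcontrol replicate 1 (0.141) or shcontrol replicate 2 (0.145) was left out. MCM4 did not pass without shcontrol replicate 1 (limma adjusted p = 0.161). MCM5, which sits at the gate of the ring with MCM2, had 5887 and 6106 in shBDH1 libraries, against 6009 and 6079 in shcontrol libraries, a difference of -0.01 (95% interval -0.10 to 0.08). MCM6 had 7912 and 8158 in shBDH1 libraries, against 8712 and 8425 in shcontrol libraries, a difference of -0.09 (95% interval -0.18 to -0.01, limma adjusted p = 0.0710), and it passed without shBDH1 replicate 2 (0.0403).

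The unequal changes shifted the makeup of the helicase RNA without much change of its sum. The 6 genes summed to a mean of 63286 normalized counts in shBDH1 libraries and 67413 in shcontrol libraries, a difference of -6.12%. Per kilobase of exon union, MCM7 made up at most 29.2% of the summed level in shBDH1 libraries, against at least 31.9% in shcontrol libraries. MCM2 made up 20.7% and 19.2% in shBDH1 libraries, against 17.0% and 17.1% in shcontrol libraries. MCM3 thus ranked below MCM2 in both shBDH1 libraries, with 17.4% and 18.6%, and above it in both shcontrol libraries, with 20.2% and 20.7%. Per kilobase of the principal transcript this order was not clear in the first shcontrol library, where MCM3 made up 16.5% and MCM2 16.6%. Reads of MCM2 and MCM7 may be shared with antisense partners, since the strand setting is not given in the sources used here. AC023593.1 overlaps 22.7% of the exon bases of MCM2 on the opposite strand and had 3245 and 3238 normalized counts in shBDH1 libraries, against 2945 and 3130 in shcontrol libraries. AP4M1 overlaps 8.94% of those of MCM7 and had 2277 and 2163 in shBDH1 libraries, against 2689 and 2482 in shcontrol libraries. Each partner differed in the same direction as the helicase gene it overlaps, and its part in the result was not tested.

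**Figure D2:**
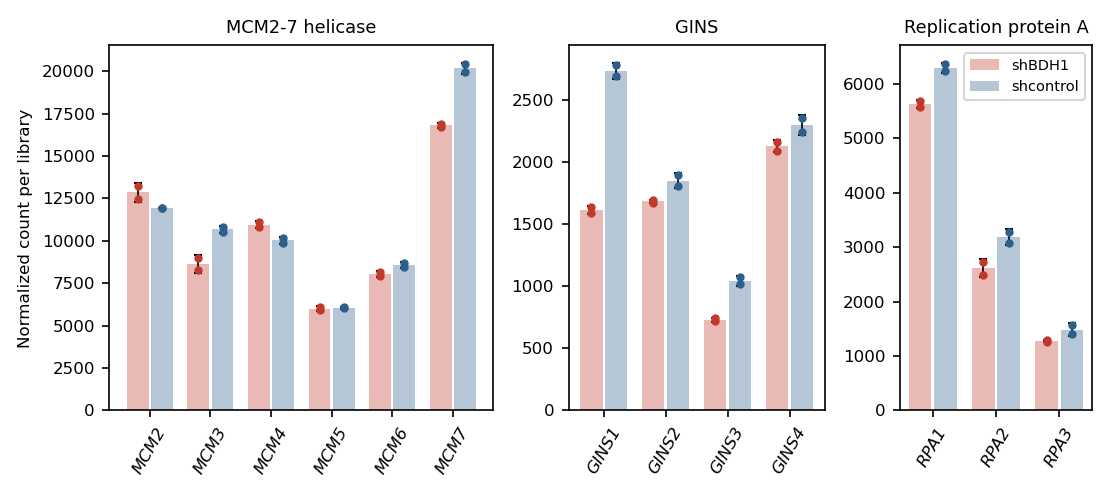
Normalized counts of the subunits of MCM2-7, GINS and replication protein A, with bars at the group mean, whiskers of 1 SD (n = 2) and a point for each library, and separate vertical scales. MCM3 and MCM7 are lower and MCM2 and MCM4 higher with shBDH1, GINS1 fell by 41.0%, and the 3 genes of replication protein A are lower together.

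Of the 8 genes that fire origins or complete CMG, 2 fell and 6 did not pass. Both that fell were GINS subunits. GINS1 (ENSG00000101003, chr20:25407727-25452628) had 1640 and 1590 normalized counts in shBDH1 libraries, against 2784 and 2693 in shcontrol libraries. Its mean fell by 41.0%, a log2 difference of -0.76 (SE 0.06, limma adjusted p = 5.60e-11). Only 585 of the 4020 genes that fell did so by more. GINS3 (ENSG00000181938, chr16:58295080-58406144) had 743 and 720 in shBDH1 libraries, against 1074 and 1018 in shcontrol libraries. Its mean fell by 30.1%, a log2 difference of -0.51 (SE 0.09, limma adjusted p = 2.84e-05), and 1286 of the 4020 genes that fell did so by more. For both genes the gap between groups was several times the gap between libraries of a group. The antisense gene AC009118.2 overlaps 10.9% of the exon bases of GINS3 and had 145 and 194 in shBDH1 libraries, against 258 and 239 in shcontrol libraries, and its part was not tested.

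The other GINS subunits differed less. GINS2 had 1676 and 1695 normalized counts in shBDH1 libraries, against 1807 and 1895 in shcontrol libraries, a difference of -0.13 (95% interval -0.27 to 0.00, limma adjusted p = 0.112). GINS4 had 2095 and 2164 in shBDH1 libraries, against 2361 and 2243 in shcontrol libraries, a difference of -0.11 (95% interval -0.24 to 0.01, limma adjusted p = 0.155). Both genes were lower in every shBDH1 library, without passing the test. The 95% intervals of GINS2 and GINS4 did not reach the values of GINS1 and GINS3. Summed, the 4 genes had a mean of 6162 in shBDH1 libraries and 7937 in shcontrol libraries, a difference of -22.4%. GINS1 made up 27.9% and 27.0% of the complex per kilobase of exon union in shBDH1 libraries, against 36.4% and 35.8% in shcontrol libraries. GINS2 was the most abundant of the 4 by this measure in both shBDH1 libraries, with 35.5% and 35.9%, and stood second to GINS1 in both shcontrol libraries, with 29.5% and 31.4%.

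None of the other firing factors passed the main test. CDC45, the partner of GINS in CMG, had 3136 and 3301 normalized counts in shBDH1 libraries, against 3092 and 3236 in shcontrol libraries, a difference of 0.02 (95% interval -0.09 to 0.14), and the groups overlapped. MCM10, which activates the assembled helicase, had 3733 and 3640 in shBDH1 libraries, against 3542 and 3414 in shcontrol libraries, a difference of 0.08 (95% interval -0.02 to 0.19). It passed as higher in edgeR with upper-quartile factors (edgeR adjusted p = 0.0460). Neither gene of the kinase pair passed. CDC7, the catalytic subunit, had 2805 and 2984 in shBDH1 libraries, against 3275 and 3047 in shcontrol libraries, a difference of -0.13 (95% interval -0.24 to -0.01, limma adjusted p = 0.0794). CDC7 passed without shBDH1 replicate 2 (limma adjusted p = 0.0465). DBF4, its activating subunit, had 2555 and 2494 in shBDH1 libraries, against 2453 and 2304 in shcontrol libraries, a difference of 0.09 (95% interval -0.04 to 0.21).

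**Figure D3:**
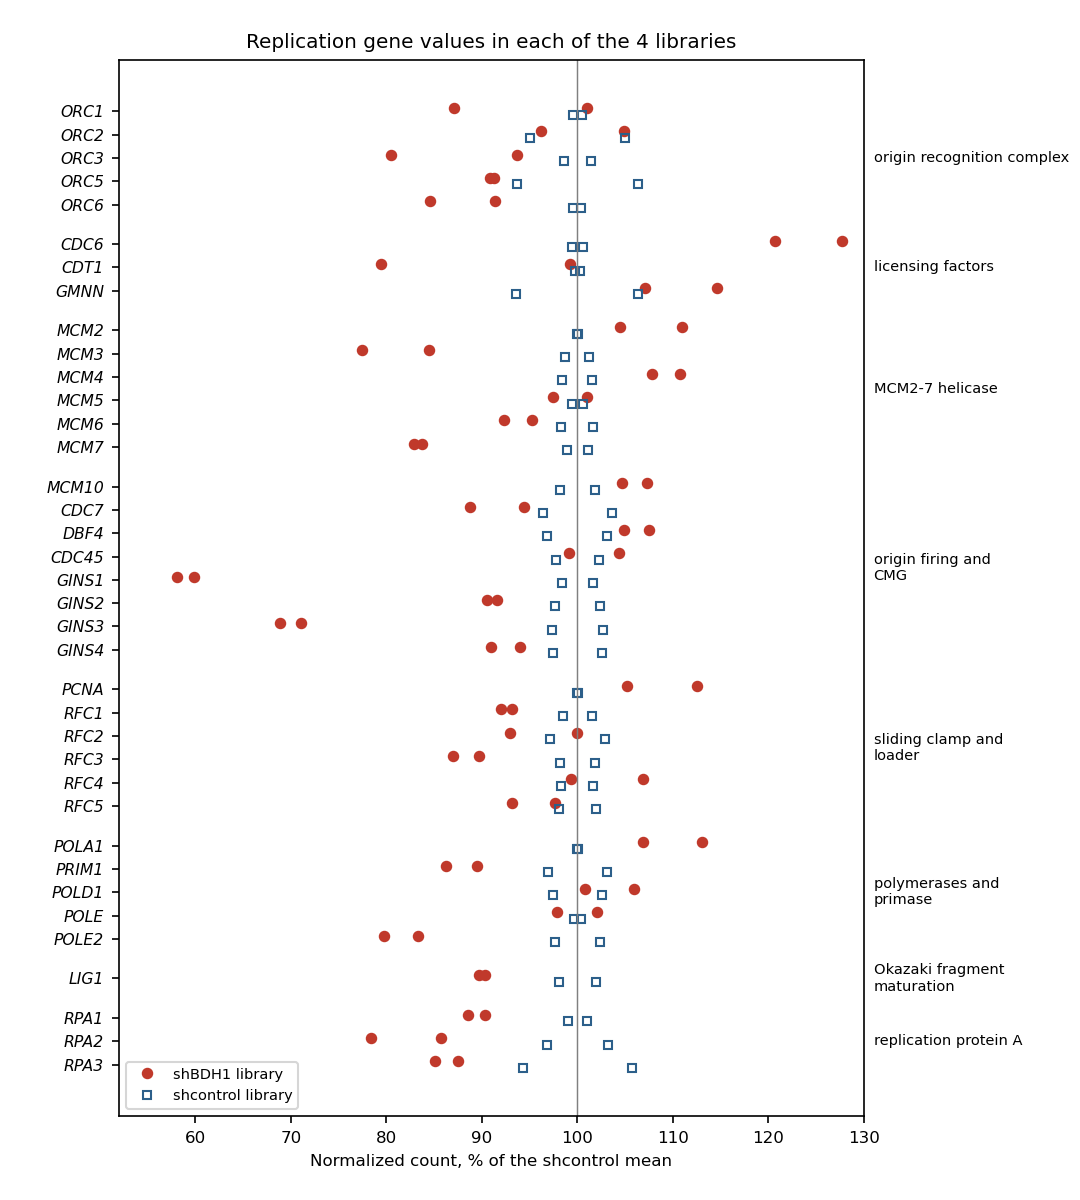
Normalized count of each replication gene in each of the 4 libraries as a percentage of its shcontrol mean, grouped by role, with filled circles for shBDH1 and open squares for shcontrol. Most shBDH1 circles lie within 20 percentage points of the shcontrol mean, those of GINS1 and GINS3 lie lowest and those of CDC6 highest, and CDT1 shows 1 low shBDH1 library.

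Of the sliding clamp and its loader, the clamp rose and 1 of the 5 loader genes fell. PCNA (ENSG00000132646, chr20:5114953-5126626), the ring that tethers polymerases to DNA, had 9268 and 9915 normalized counts in shBDH1 libraries, against 8807 and 8822 in shcontrol libraries. It rose by 0.12 (SE 0.04, limma adjusted p = 0.0182), a mean 8.82% higher. The second shBDH1 library carried more of this rise, and the call was lost without shBDH1 replicate 2 (0.07, limma adjusted p = 0.170), shcontrol replicate 1 (0.112) or shcontrol replicate 2 (0.104). RFC3, a small loader subunit, had 3393 and 3500 in shBDH1 libraries, against 3828 and 3972 in shcontrol libraries, and fell by 0.18 (SE 0.05, limma adjusted p = 0.00654). It did not pass without shcontrol replicate 2 (limma adjusted p = 0.0989). RFC1, the large subunit, had 3514 and 3559 in shBDH1 libraries, against 3762 and 3877 in shcontrol libraries, a difference of -0.11 (95% interval -0.22 to -0.01, limma adjusted p = 0.0866). The remaining loader genes were close between groups. RFC2 had 2106 and 2266 in shBDH1 libraries, against 2202 and 2332 in shcontrol libraries, a difference of -0.05 (95% interval -0.18 to 0.08). RFC4 had 2947 and 3170 in shBDH1 libraries, against 2915 and 3015 in shcontrol libraries, a difference of 0.04 (95% interval -0.07 to 0.16). RFC5 had 2751 and 2883 in shBDH1 libraries, against 3008 and 2896 in shcontrol libraries, a difference of -0.07 (95% interval -0.18 to 0.05). The groups overlapped for RFC2 and RFC4, and for RFC5 they were apart by less than the libraries of either group. The 5 loader genes summed to a mean of 15044 in shBDH1 libraries and 15904 in shcontrol libraries, a difference of -5.41%.

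Among polymerase and primase genes, 1 of the 5 tested fell. POLE2 (ENSG00000100479, chr14:49643555-49688422), the second subunit of polymerase epsilon, which copies the leading strand, had 1576 and 1508 normalized counts in shBDH1 libraries, against 1846 and 1935 in shcontrol libraries. It fell by 0.29 (SE 0.07, limma adjusted p = 0.000893). POLE, the catalytic subunit of the same enzyme, had 8904 and 8539 in shBDH1 libraries, against 8763 and 8693 in shcontrol libraries. Its difference was 0.00 (95% interval -0.08 to 0.08), and that interval did not reach the interval of POLE2, which ran between -0.43 and -0.15. POLD1, the catalytic subunit of the lagging-strand polymerase delta, had 5336 and 5079 in shBDH1 libraries, against 5168 and 4911 in shcontrol libraries, a difference of 0.05 (95% interval -0.05 to 0.15). Neither of the genes tested for the enzyme that starts new strands passed. POLA1, its polymerase subunit, had 2387 and 2258 in shBDH1 libraries, against 2113 and 2110 in shcontrol libraries, a difference of 0.14 (95% interval 0.01 to 0.26, limma adjusted p = 0.0789). PRIM1, its primase subunit, had 1083 and 1124 in shBDH1 libraries, against 1296 and 1217 in shcontrol libraries, a difference of -0.19 (95% interval -0.35 to -0.02, limma adjusted p = 0.0611). Each had groups that did not overlap, with POLA1 values higher and PRIM1 values lower in shBDH1 libraries, and the difference between the genes was not tested. POLA1 passed as higher in edgeR with upper-quartile factors (edgeR adjusted p = 0.0204) and with library totals (0.0364). AC117378.1 shares 14.9% of the exon bases of PRIM1 on the same strand and was not analysed here.

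Of the genes that join Okazaki fragments, LIG1 was tested and fell. LIG1, the ligase that seals lagging-strand fragments, had 3872 and 3843 normalized counts in shBDH1 libraries, against 4368 and 4204 in shcontrol libraries. It fell by 0.15 (SE 0.05, limma adjusted p = 0.0155), and did not pass without shcontrol replicate 1 (limma adjusted p = 0.178). FEN1, the nuclease that trims flaps before ligation, had 10 and 2 reads in shBDH1 libraries, against 10 and 8 in shcontrol libraries, and was not tested. Of its span, 92.6% lies inside FADS2 on the same strand, but FADS2 shares only 1.98% of its exon bases. TMEM258, on the opposite strand, shares 6.70% of them. FADS2 had about 14619 and 14476 normalized counts in shBDH1 libraries, against 14715 and 14349 in shcontrol libraries. Whether reads of FEN1 went to FADS2 was not tested, so the table does not give the level of FEN1.

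All 3 subunits of replication protein A fell. RPA2 (ENSG00000117748, chr1:27891524-27914746), the subunit phosphorylated under replication stress, had 2493 and 2727 normalized counts in shBDH1 libraries, against 3078 and 3284 in shcontrol libraries, and fell by 0.29 (SE 0.06, limma adjusted p = 0.000264). RPA1, the large DNA-binding subunit, had 5581 and 5690 in shBDH1 libraries, against 6235 and 6364 in shcontrol libraries, and fell by 0.16 (SE 0.04, limma adjusted p = 0.00415). RPA3, the smallest, had 1259 and 1294 in shBDH1 libraries, against 1564 and 1394 in shcontrol libraries, and fell by 0.21 (SE 0.08, limma adjusted p = 0.0291). Every shBDH1 library was below every shcontrol library for each of them. With all libraries kept, RPA3 did not pass in DESeq2 (DESeq2 adjusted p = 0.0892) or in edgeR with upper-quartile factors (edgeR adjusted p = 0.0882). RPA1 did not pass without shcontrol replicate 2 (limma adjusted p = 0.0713), and the call of RPA3 was lost without shcontrol replicate 1 (-0.13, limma adjusted p = 0.353) and when either shBDH1 library was left out (0.124 without replicate 1 and 0.0608 without replicate 2). The 3 genes summed to a mean of 9522 in shBDH1 libraries and 10959 in shcontrol libraries, a difference of -13.1%. Their proportions were steadier than those of GINS: RPA1 made up 38.5% and 37.2% per kilobase of exon union in shBDH1 libraries, against 36.1% and 36.0% in shcontrol libraries. UMAD1 spans 94.9% of RPA3 on the opposite strand, shares 3.65% of its exon bases and was not analysed here.

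Levels between genes were compared per kilobase of exon union, which differs between genes in how many rarely used exons it holds. PCNA was the highest in both groups, with a mean of 6521 normalized counts per kilobase in shBDH1 libraries and 5992 in shcontrol libraries. MCM7 followed, with 3832 in shBDH1 libraries and 4600 in shcontrol libraries. At the low end stood GINS3, with 143 in shBDH1 libraries and 205 in shcontrol libraries. Within the ring, MCM7 lay above MCM3 with 2368 in shBDH1 libraries and 2924 in shcontrol libraries, and above MCM2 with 2622 in shBDH1 libraries and 2434 in shcontrol libraries. MCM5 was the lowest of the 6, with 817 in shBDH1 libraries and 824 in shcontrol libraries. The order of MCM4 and MCM6 depended on the length used: in shcontrol libraries MCM4 had 1437 and MCM6 2081 per kilobase of exon union, but 2396 and 2293 per kilobase of the principal transcript. By that length MCM7, with 6822 in shcontrol libraries, also passed PCNA, with 6486, and POLA1, with 385, stood below GINS3 there.

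Promoters of 6 genes that passed the test are shown because some with the same letters near a RefSeq start site moved in opposite directions. Promoters came from RefSeq (GRCh38.p14), which had entries for 34 of the 39 genes, each 300 bases long. E2F-type letters were searched on both strands as TTTCCCGC, TTTGGCGC, TTTCGCGC or TTTGCCGC. The 6 windows below hold 80 bases before and 20 bases from the start site, 5′ to 3′ on the gene's strand, with the E2F-type letters in capitals.
MCM2: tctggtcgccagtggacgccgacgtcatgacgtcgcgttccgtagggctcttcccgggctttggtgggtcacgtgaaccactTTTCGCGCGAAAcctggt
MCM3: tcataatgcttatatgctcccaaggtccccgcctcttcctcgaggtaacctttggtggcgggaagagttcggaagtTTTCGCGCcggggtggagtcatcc
MCM7: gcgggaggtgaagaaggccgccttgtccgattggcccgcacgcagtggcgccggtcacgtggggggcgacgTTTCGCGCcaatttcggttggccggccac
CDC6: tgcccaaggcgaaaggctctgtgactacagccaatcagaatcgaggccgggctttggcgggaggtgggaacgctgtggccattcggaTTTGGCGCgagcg
GINS1: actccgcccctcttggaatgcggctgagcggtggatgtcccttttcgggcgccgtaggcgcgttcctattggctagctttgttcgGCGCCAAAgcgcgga
GINS3: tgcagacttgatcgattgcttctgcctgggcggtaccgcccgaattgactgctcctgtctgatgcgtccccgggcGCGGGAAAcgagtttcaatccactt
On GRCh38.p14 these windows lie at chr3:127598331-127598430 on the plus strand for MCM2, chr6:52284723-52284822 on the minus strand for MCM3, and chr7:100101378-100101477 on the minus strand for MCM7. The others lie on the plus strand, at chr17:40287799-40287898 for CDC6, chr20:25407593-25407692 for GINS1 and chr16:58392391-58392490 for GINS3. The GINS1 window ends before the start of the gene in GENCODE 29 given above, and its RefSeq start was not found in a GENCODE transcript. MCM2 carried TTTCGCGC on both strands, overlapping, and rose, while MCM3 and MCM7 carried the same letters and fell. CDC6 and GINS1 carried TTTGGCGC, on opposite strands, and were the largest rise and the largest fall among the replication genes. Genes with these letters that did not pass are not shown. POLE carried TTTGGCGC on the same strand as GINS1 did, at -18 from its start site, with a difference of 0.00. MCM6 carried both TTTGGCGC and TTTCGCGC further from its start site and did not pass.

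The E2F-type letters were common in these promoters and stood in genes that rose and in genes that fell. Counted once per gene where any of its promoter entries matched, they stood in 19 of the 34 genes, or 55.9%, against 3.99% of all 27305 genes with an entry and 6.14% of those tested. Counted per entry, they stood in 45.2% of the 42 entries of the replication genes, against 3.31% of all 35116 promoters. By outcome they stood in 3 of 3 genes that rose, 9 of 11 that fell and 6 of 18 that did not pass. They also stood in 11 of 41 other replication genes, 3 of 25 G2/M genes and 4 of 18 nucleotide synthesis genes. Over all 693 tested genes with such a match, 20.8% rose and 28.1% fell, with a median difference of -0.05, against 23.7%, 24.4% and 0.00 of the 10599 without one. The E-box CACGTG, the letters that MYC and its partner MAX bind, stood in 5 of the 34 (MCM2, MCM7, RPA1, GMNN and FEN1), or 14.7%, against 8.77% of all genes with an entry and 12.2% of those tested. Of these genes MCM2 rose and MCM7 and RPA1 fell. CCAAT, the letters that NF-Y binds, stood in 20 of the 34, or 58.8%, against 39.7% of all genes with an entry and 42.6% of those tested. These matches are letters in a window, not sites shown to be bound.

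Other genes of the replication machinery also moved in both directions. Of 48 other replication genes, all in the table, 46 were tested, 9 rose and 15 fell, with a median of -0.04. These shares, 19.6% and 32.6%, stood beside 20.3% and 20.8% of all genes tested. Among genes at a mean of at least 1000, a level that not all of these genes reach, 26.2% rose and 34.7% fell. SUPT16H, the large subunit of the histone chaperone FACT, had 10135 and 10253 normalized counts in shBDH1 libraries, against 13205 and 13264 in shcontrol libraries, and fell by 0.38 (limma adjusted p = 1.51e-09). CHAF1A, a subunit of the chaperone CAF-1 that works behind PCNA, had 3160 and 3275 in shBDH1 libraries, against 4566 and 4512 in shcontrol libraries, and fell by 0.50 (limma adjusted p = 4.46e-09). In the list of chromatin assembly genes that holds both, 5 of 10 fell and 5 did not pass, with a median of -0.20. The remaining lists were more even. Other licensing and firing factors gave 4 higher and 4 lower, and fork protection and cohesion genes 2 and 2. Nucleases and topoisomerases gave 2 and 3, and other subunits 1 and 1. TIMELESS, which protects stalled forks, had 3858 and 3859 in shBDH1 libraries, against 5168 and 5582 in shcontrol libraries, and fell by 0.48 (limma adjusted p = 6.54e-09). CLSPN, which signals from stalled forks in the same assembly, had 2974 and 3030 in shBDH1 libraries, against 2547 and 2296 in shcontrol libraries, and rose by 0.31 (limma adjusted p = 0.000112). Genes of the ubiquitin system that limits CDT1 moved in both directions: SKP2 and CUL4A rose, while DDB1 and DTL fell. DDB1 differed by -0.35 (limma adjusted p = 5.95e-08) and DTL by -0.24 (limma adjusted p = 0.000357). SKP2 had 4254 and 4108 in shBDH1 libraries, against 3539 and 3713 in shcontrol libraries, a rise of 0.21 (limma adjusted p = 0.00180). CUL4A had 5615 and 5527 in shBDH1 libraries, against 4779 and 5060 in shcontrol libraries, a rise of 0.18 (limma adjusted p = 0.00269) that did not pass without shcontrol replicate 1 (0.0956).

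Further subunits of the complexes above were measured too, and POLD2 and POLE4 passed the test. POLD2, the second subunit of polymerase delta, had 6186 and 6248 normalized counts in shBDH1 libraries, against 8599 and 8185 in shcontrol libraries, and fell by 0.43 (SE 0.04, limma adjusted p = 2.05e-09). The 95% interval of its catalytic partner POLD1, -0.05 to 0.15, did not reach that value. POLE4, a small subunit of polymerase epsilon, had 391 and 388 in shBDH1 libraries, against 262 and 273 in shcontrol libraries, and rose by 0.54 (SE 0.14, limma adjusted p = 0.00287). In polymerase epsilon POLE2 was thus lower, POLE4 higher, and POLE did not pass. POLE3, its other small subunit, differed by -0.08 (limma adjusted p = 0.149). PRIM2 by 0.06 (0.556), POLD3 by 0.05 (0.572) and ORC4 by 0.06 (0.579) did not pass either. POLD4 was near 0, with 5.90 and 0 normalized counts in shBDH1 libraries, against 1.03 and 8.18 in shcontrol libraries, and was not tested.

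In related cell-cycle lists too, more genes fell than rose, as they did among all genes at a mean of at least 1000. Of 30 G2/M and mitosis genes tested, 3 rose and 16 fell, with a median of -0.23. Of 20 nucleotide synthesis genes tested, 4 rose and 9 fell, with a median of -0.12. The replication genes, with 4 higher and 13 lower of 37 and a median of -0.11, had the smallest share of calls among these lists, 45.9%, beside 63.3% of G2/M genes and 65.0% of nucleotide synthesis genes. Among genes at a mean of at least 1000, 26.2% rose, 34.7% fell and 60.9% changed. The shares of calls in the G2/M and nucleotide synthesis lists were close to that last share. The lists were not matched to this level, and the difference between the lists was not tested.

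**Figure D4:**
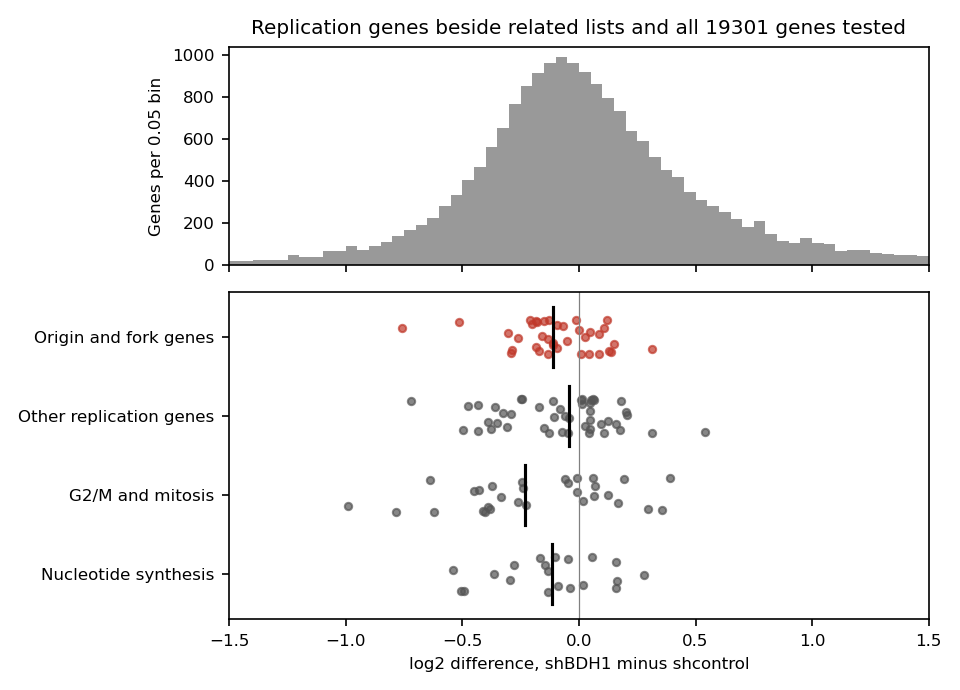
Log2 difference, shBDH1 minus shcontrol, of each tested gene in 4 lists, with a black bar at the median of each list, under the distribution of all 19301 genes tested (767 lie outside the axis). The medians are -0.11 for the replication genes described here, -0.04 for other replication genes, -0.23 for G2/M and mitosis and -0.12 for nucleotide synthesis, and the replication genes spread less than the whole set.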

How the data were processed

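The deposited signal per gene is normalized: the authors divided read counts by 1 size factor per library. This was read from the values, since 100% of them, once multiplied back, were whole reads (tolerance 0.01 reads) in every library. The submitters' processing notes name hg38, FastQC 0.11.9 and HISAT2 2.2.1. The sources used here do not give the counter, annotation release, strand setting or size factor tool. No column of per-library values was unused. Positions came from GENCODE 29, and 21 symbols that had become dates were renamed from gene IDs.

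The main test was limma 3.58.1 in R 4.3.3 (trend in the prior) on log2(value + 1), which understates changes of low genes, for 19301 genes with a mean of at least 10. P-values were adjusted by Benjamini-Hochberg at 0.05. edgeR 4.0.16 on the recovered reads called 3976 genes higher and 3917 lower. DESeq2 1.42.0, other scalings, pseudocounts and filters, a prior without trend, a replicate block and fits with 1 library left out were alternatives. With 1 library left in a group, it is assumed to vary like the others. The fit was tested on simulated reads. Before averaging, libraries of a group were compared by chi-square of reads over genes. Per degree of freedom this came to 5.13 for shBDH1 and 3.72 for shcontrol, against 46.2 to 49.2 across groups.

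Replication genes and lists were chosen with earlier results of these data known. The text names every listed replication gene, BDH1, MYC and CDK4, the 4 other replication genes with the smallest p in each direction and all listed extra subunits. DDB1 and DTL were added after their values were seen. Promoter letters and the principal transcript lengths were chosen after seeing the data. Genes that share exon bases with another gene, 16 of the 39, may share its reads.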

Additional observations from a re-analysis of the deposited data

How the results depend on the processing

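Both GINS1 and GINS3 kept their call and direction in all 14 alternatives, and no called difference reversed. Only the prior without an intensity trend ended the calls of CDC6 (limma adjusted p = 0.0678), MCM3 (0.0858), MCM7 (0.0740), POLE2 (0.0766) and RPA2 (0.111), and of BDH1 (0.0834), CLSPN (0.0937) and SKP2 (0.128). Counts of replication genes were 4 higher and 13 lower. They were 7 higher and 8 lower with upper-quartile factors, 2 higher and 9 lower without a filter on low values, and 0 higher and 2 lower in limma without the trend, which pools the spread of low and high genes (1 higher at an unadjusted p under 0.05). Without the trend the other replication genes gave 1 higher and 6 lower, and all genes 1598 higher and 1246 lower, against 3910 and 4020. DESeq2 gave 4 and 9, edgeR with TMM factors 5 and 13. With each library left out in turn, 1 to 4 replication genes were higher and 8 to 12 lower, and 5 to 7 other replication genes were higher and 13 to 15 lower. The median difference ran between -0.11 and -0.07. Per kilobase of principal transcript, the shcontrol mean was 6822 for MCM7, 2396 for MCM4 and 2293 for MCM6. The libraries share only replicate numbers: the difference between replicates 1 and 2 correlated at 0.00133 across genes between the groups. The replicate block gave 5 higher and 14 lower, adding GMNN (limma adjusted p = 0.0298) and MCM6 (0.0419). The causes were not tested. With 2 libraries a group, uncalled differences up to 0.349 lie within the 95% intervals.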

Other observations

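Several replication genes other than FEN1 were near 0 in the table and were picked out after their values were seen. RNASEH2A, the catalytic subunit of the enzyme that removes ribonucleotides from DNA, had 3.93 and 27.2 normalized counts in shBDH1 libraries, against 29.8 and 11.2 in shcontrol libraries. MCM8, a helicase of DNA repair, had 13.8 and 41.2 in shBDH1 libraries, against 39.0 and 14.3 in shcontrol libraries. CHTF8, a part of the alternative clamp loader, had 3.93 and 5.03 in shBDH1 libraries and was listed at 0 in both shcontrol libraries. The partner genes RNASEH2B, with 6826 and 6870 in shBDH1 libraries against 6507 and 6205 in shcontrol libraries, and CHTF18, with 3992 and 4276 in shBDH1 libraries against 4572 and 4740 in shcontrol libraries, were well covered. THSD8 shares 30.8% of the exon bases of RNASEH2A on the same strand, as AP003419.1 does for 21.3% of those of POLD4. Whether this sharing sets the low values was not tested.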
